A study of Mus musculus with 6 samples.

Results

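The muscle acetylcholine receptor and the proteins that gather it at the nerve contact were followed as a group of 10 genes, chosen by name: Chrna1, Chrnb1, Chrnd, Chrng, Chrne, Musk, Rapsn, Dok7, Lrp4 and Agrn. All 10 symbols were found among 18002 listed genes. RNA came from primary cells of the mouse jawbone periosteum, the cell layer that wraps bone. After 48 h the cells had been harvested either as spheroids, in which they had aggregated by themselves, or as a flat monolayer, with 3 libraries of each format and no other treatment named in the labels. Total counts were between 21701010 and 21889071 per library. The labels give neither the animals nor the cultures behind each library, so the p-values measure only the spread between these libraries, which may be technical.

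The muscle acetylcholine receptor is a cation channel of 5 subunits that opens when the motor nerve releases acetylcholine. The alpha subunit, encoded by Chrna1, binds the transmitter together with its neighbours and is joined by beta (Chrnb1), delta (Chrnd) and either gamma (Chrng) or epsilon (Chrne). Gamma belongs to the receptor of fetal and denervated muscle, and epsilon replaces it at mature, innervated junctions. Agrin (Agrn), a proteoglycan released by the nerve and also made by many non-neural cells, binds the receptor LRP4 (Lrp4). LRP4 then activates the kinase MuSK (Musk), which works with the adaptor Dok-7 (Dok7), and rapsyn (Rapsn) holds the receptors in clusters. LRP4 has a further role in bone, where it presents the Wnt inhibitor sclerostin. Myogenic factors such as MyoD and myogenin act on receptor subunit genes through E-boxes, and ETS factors of the GABP type act through an N-box at synaptic nuclei.

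The promoters of 4 subunit genes are shown for the range of their mRNA levels and changes in these libraries: Chrna1 and Chrng at similar high levels in spheroids, Chrnb1 with a smaller rise, and Chrne at a few reads. Each window runs from 250 bases before to 50 bases after a RefSeq start of the gene (GRCm38.p6). It is printed 5′ to 3′ on the strand of the gene, with E-boxes (CANNTG) and the N-box (CCGGAA) in capitals. The windows are chr2:73580289-73580588 on the minus strand for Chrna1, chr1:87205561-87205860 on the plus strand for Chrng, chr11:69795888-69796187 on the minus strand for Chrnb1 and chr11:70619145-70619444 on the minus strand for Chrne.
Chrna1: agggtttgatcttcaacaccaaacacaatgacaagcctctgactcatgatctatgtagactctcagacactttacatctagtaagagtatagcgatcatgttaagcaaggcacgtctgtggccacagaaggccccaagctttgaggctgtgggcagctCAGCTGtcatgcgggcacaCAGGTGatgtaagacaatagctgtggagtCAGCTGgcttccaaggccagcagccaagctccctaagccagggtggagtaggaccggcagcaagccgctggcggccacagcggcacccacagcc
Chrng: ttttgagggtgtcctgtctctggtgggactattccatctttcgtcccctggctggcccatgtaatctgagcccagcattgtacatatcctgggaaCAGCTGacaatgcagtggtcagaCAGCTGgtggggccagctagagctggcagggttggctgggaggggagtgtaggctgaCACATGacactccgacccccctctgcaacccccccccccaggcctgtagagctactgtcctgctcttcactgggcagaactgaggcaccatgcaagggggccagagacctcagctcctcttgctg
Chrnb1: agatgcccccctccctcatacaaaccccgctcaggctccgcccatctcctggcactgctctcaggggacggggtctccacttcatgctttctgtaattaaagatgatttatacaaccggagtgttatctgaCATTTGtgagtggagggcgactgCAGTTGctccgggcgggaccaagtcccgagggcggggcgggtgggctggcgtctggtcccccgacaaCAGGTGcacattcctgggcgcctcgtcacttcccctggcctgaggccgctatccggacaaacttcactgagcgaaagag
Chrne: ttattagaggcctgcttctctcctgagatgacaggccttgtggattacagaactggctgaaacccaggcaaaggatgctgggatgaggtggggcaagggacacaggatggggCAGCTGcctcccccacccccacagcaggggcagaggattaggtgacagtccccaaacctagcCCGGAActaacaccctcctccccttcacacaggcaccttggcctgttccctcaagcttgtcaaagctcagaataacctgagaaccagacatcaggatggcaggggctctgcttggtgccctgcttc

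Of the 10 genes, 7 had a promoter window, Dok7 and Agrn with 2 each; Chrnd, Rapsn and Lrp4 had none. An E-box matches CANNTG on both strands at once, and CAGCTG and CACCTG are forms of it. Chrna1, Chrnb1, Chrng and Musk held 3 E-boxes each, a number reached by 17.6% of the 32851 windows of all genes, while 72.3% held at least 1. Chrna1 carried the form CAGCTG at 92 and 44 bases before the start, and Chrng at 155 and 132 bases before it. At least 2 copies of CAGCTG stood in 1.90% of all windows. Musk and Chrne had 1 copy each, 68 and 138 bases before the start, and the Chrnb1 window held none. All distances count from the start on which the window was built. For Chrna1 and Chrng that is the first base of the gene as positioned below. In the other genes it lies inside that span, and so does the Musk copy. The N-box stood in the Chrne window, 76 bases before the start, and in 14.9% of all windows. The 2 windows of Agrn held 1 E-box between them, and so did those of Dok7. These matches describe letters in short windows and show neither a bound site nor a cause of the levels below.

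Every receptor gene but Chrne had enough reads to be tested, and each of the 9 was higher in spheroids than in monolayers. The subunits Chrng, Chrnd and Chrna1 were 16.7 to 19.5-fold higher, and the clustering genes Dok7, Musk and Rapsn were 8.95 to 14.7-fold higher. Chrnb1 was 5.05-fold, Agrn 2.49-fold and Lrp4 1.49-fold higher. In edgeR's quasi-likelihood test, 9 of the 9 tested genes rose at a Benjamini-Hochberg adjusted p below 0.05, where 37.1% of 13708 tested genes rose and 74.2% changed in either direction. With at least a 2-fold rise, 8 of 9 passed, against 12.7% of all tested genes, and none fell, while 6.67% of all tested genes fell by 2-fold or more. A rise of 8-fold or more was called for 6 of 9, against 3.53% of all tested genes. In CPM (counts per library total, scaled to a common size), every spheroid lay above every monolayer for 9 of 9 tested genes. The same held for 38.0% of all tested genes, and also for Chrne, which was not tested. The median log2 fold change was 3.19 for these 9 genes and -0.00 for all tested genes. Chrne had too few reads for the filter on low counts. Rapsn and Dok7 reached its limit of 0.459 CPM, on library totals without TMM adjustment, in 3 spheroids and 1 monolayer each, so that only high spheroid levels could carry them through, and their place in the count supports nothing by itself.

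**Figure D1:**
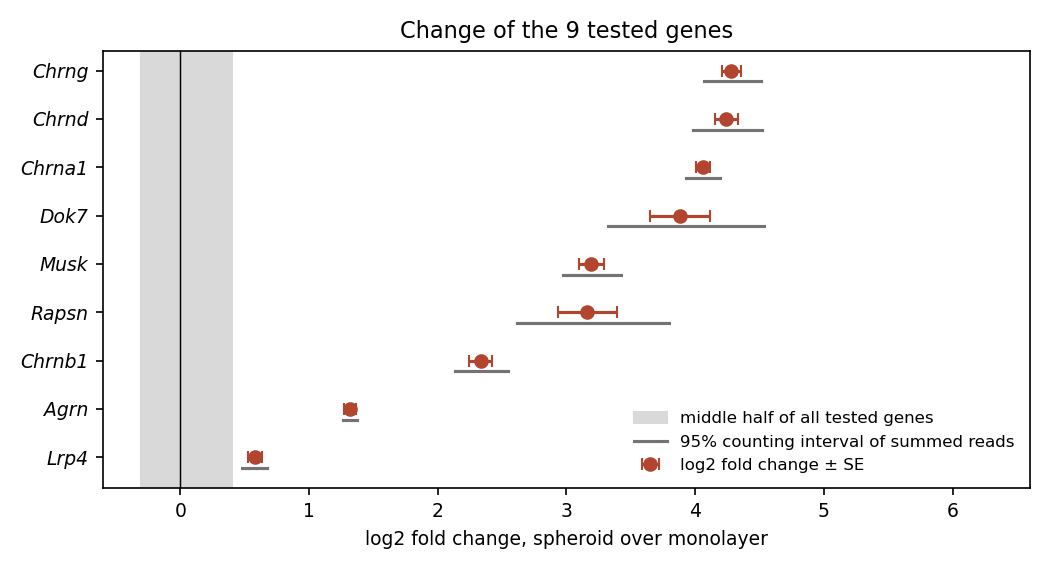
Log2 fold change of the 9 tested genes, spheroid over monolayer, with SE (red) and the exact 95% counting interval of the summed reads (grey lines); the grey band is the interquartile range of all tested genes. Chrng, Chrnd and Chrna1 lie above 4, Agrn at 1.32 and Lrp4 at 0.58.

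Chrna1 (gene ID 11435, chromosome 2, 73563281 to 73580338, minus strand, GRCm38.p6) encodes the alpha subunit, without which no muscle receptor forms. It had 30.75, 32.69 and 29.88 FPKM (fragments scaled to gene length and library depth, the authors' per-length level) in the 3 spheroids, against 1.71, 1.8 and 1.95 FPKM in the 3 monolayers. The formats did not overlap, and the lowest spheroid stood far above the highest monolayer. The log2 fold change was 4.06 ± 0.06 (SE, edgeR adjusted p = 2.75e-33), from 131 ± 6.71 CPM in spheroids and 7.87 ± 0.485 CPM in monolayers (SD, n = 3).

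Chrng (gene ID 11449, chromosome 1, 87205811 to 87211835, plus strand) encodes the gamma subunit of the fetal receptor. It had 29.46, 30.66 and 30.07 FPKM in spheroids, against 1.56, 1.49 and 1.42 FPKM in monolayers. Again every spheroid lay above every monolayer, and the spread within a format was small. The log2 fold change was 4.28 ± 0.07 (edgeR adjusted p = 9.92e-31), which placed it at rank 164 of 13708 tested genes by size of the rise. Chrnd (gene ID 11447, 87190597 to 87200070, plus strand), the delta subunit gene, lies 5740 bases upstream of Chrng on the same chromosome. It had 12.45, 12.27 and 12.74 FPKM in spheroids, against 0.66, 0.55 and 0.72 FPKM in monolayers. Its change of 4.24 ± 0.09 on the log2 scale (adjusted p = 3.21e-28) differed from that of its neighbour by less than the SE. The summed reads over 3 libraries were 2375 in spheroids and 123 in monolayers, and the exact 95% interval of their scaled ratio ran from 15.8 to 22.9. Intervals of this kind cover counting error only.

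Chrnb1 (gene ID 11443, chromosome 11, 69784036 to 69795966, minus strand) encodes the beta subunit, which every muscle receptor contains. It had 9.0, 8.87 and 9.02 FPKM in spheroids, against 1.69, 2.03 and 1.61 FPKM in monolayers. The formats did not overlap, but the gap was narrower than for the other 3 abundant subunits. The log2 fold change was 2.34 ± 0.09 (edgeR adjusted p = 3.15e-21). Per Chrna1 FPKM, Chrnb1 stood at 0.289 ± 0.0157 in spheroids and 0.981 ± 0.151 in monolayers (SD, n = 3).

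Chrne (gene ID 11448, chromosome 11, 70614883 to 70619213, minus strand), the epsilon subunit gene of the adult receptor, had 8, 12 and 7 reads in spheroids, against 4, 6 and 1 reads in monolayers. In FPKM these were 0.24, 0.36 and 0.22 in spheroids and 0.12, 0.18 and 0.03 in monolayers. The formats did not overlap, by a margin of a single read between the nearest libraries. The scaled ratio of the summed reads, 27 against 11, was 2.41 with an exact 95% interval from 1.16 to 5.39. With no filter on low counts, edgeR gave a log2 fold change of 1.23 ± 0.57 at an adjusted p of 0.0492, so the call rests on that setting.

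**Figure D2:**
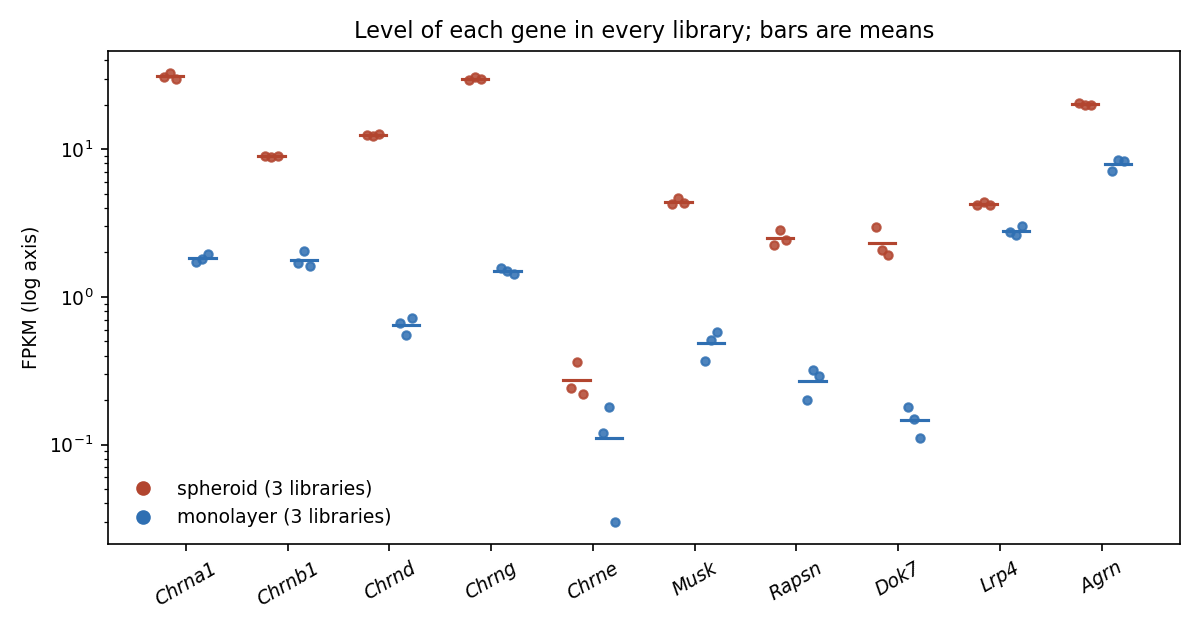
FPKM of each of the 10 genes in every library on a log axis, spheroids (red) left of monolayers (blue), with bars at the means of 3 libraries. Chrna1 and Chrng reach 29.46 to 32.69 FPKM in spheroids, while Chrne stays at or below 0.36 FPKM in both formats.

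Fetal and adult subunits could be set side by side per length. Chrng FPKM was 123, 85.2 and 137 times Chrne FPKM in spheroids, against 13, 8.28 and 47.3 times in monolayers. Gamma was thus the more abundant of the pair in all 6 libraries. The log2 ratio was higher by 2.71 in spheroids, at 6.82 ± 0.358 against 4.10 ± 1.31 in monolayers (SD, n = 3), with a two-sided exact permutation p of 0.10, the smallest that 3 against 3 libraries allow. With 1 to 6 Chrne reads per monolayer, single libraries set the size of this difference: it was 3.44 without monolayer replicate 3 and 2.18 without monolayer replicate 2.

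Within the summed FPKM of the 5 subunits, which was 82.9 ± 1.69 in spheroids and 5.84 ± 0.182 in monolayers, Chrnb1 took a smaller share and the other 3 abundant subunits a larger one in spheroids. Chrnb1 made up 10.8% ± 0.315 in spheroids and 30.4% ± 2.84 in monolayers (SD, n = 3). Chrng made up 36.3% ± 0.384 in spheroids and 25.5% ± 1.43 in monolayers. Chrna1 took 37.5% ± 1.03 and 31.2% ± 2.46, and Chrnd 15.1% ± 0.556 and 11.1% ± 1.78, in spheroids and monolayers. Chrne held 0.329% ± 0.0838 in spheroids and 1.86% ± 1.24 in monolayers. None of the 5 shares overlapped between formats, and each gave an exact permutation p of 0.10, also after Benjamini-Hochberg adjustment over the 5, which is the smallest possible. The shares sum to a whole, so they do not move independently.

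**Figure D3:**
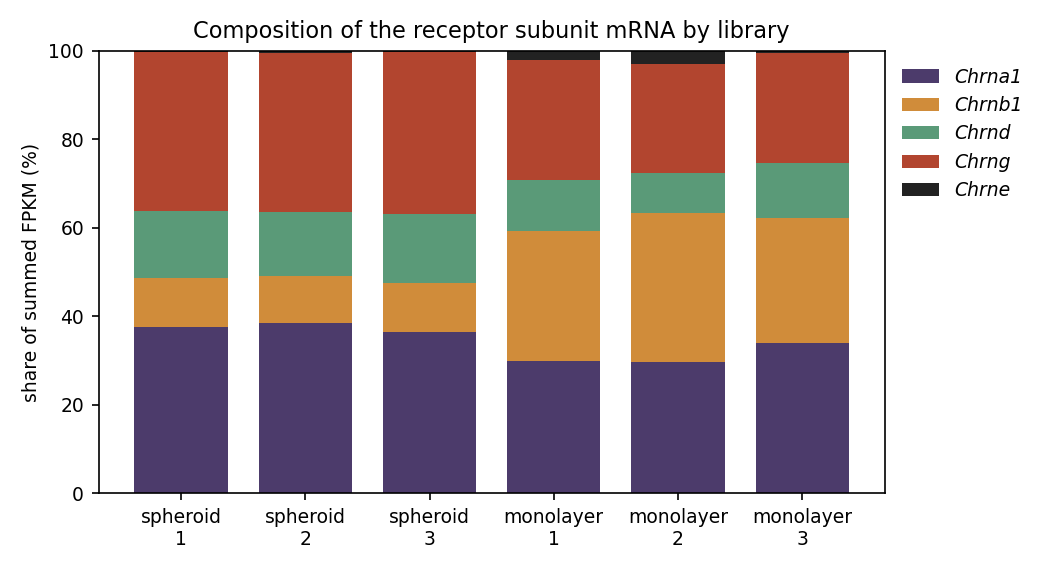
Share of the summed FPKM of the 5 receptor subunits in each library, as stacked bars from 0 to 100%, spheroids left of monolayers. Chrnb1 takes 10.5 to 11.0% in the spheroids and 28.1 to 33.6% in the monolayers.

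Musk (gene ID 18198, chromosome 4, 58285729 to 58377848, plus strand) encodes the muscle-specific kinase that starts receptor clustering. It had 4.24, 4.67 and 4.35 FPKM in spheroids, against 0.37, 0.51 and 0.58 FPKM in monolayers. All 3 spheroids were higher than all monolayers. The log2 fold change was 3.19 ± 0.10 (edgeR adjusted p = 5.07e-24). Dok7 (gene ID 231134, chromosome 5, 35056571 to 35087839, plus strand), the gene of the adaptor that activates MuSK from inside the cell, had 2.97, 2.06 and 1.91 FPKM in spheroids, against 0.18, 0.15 and 0.11 FPKM in monolayers. Spheroid replicate 1 stood above the other 2, and the formats did not overlap. Its reads numbered 167, 117 and 111 in spheroids and 11, 9 and 6 in monolayers. The log2 fold change was 3.88 ± 0.23 (adjusted p = 4.70e-15), and the ratio of summed reads had an exact 95% interval from 10.03 to 23.1.

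Rapsn (gene ID 19400, chromosome 2, 91035472 to 91045729, plus strand) encodes rapsyn, the scaffold that binds receptors from the cytoplasm. It had 77, 97 and 84 reads in spheroids, against 7, 11 and 10 reads in monolayers. The formats were well apart, at 2.51 ± 0.298 FPKM in spheroids and 0.270 ± 0.0625 FPKM in monolayers (SD, n = 3). The log2 fold change was 3.16 ± 0.23 (edgeR adjusted p = 6.11e-14), with an exact 95% interval of the read ratio from 6.12 to 13.9. Both genes rest on few monolayer reads, 28 in all for Rapsn and 26 for Dok7.

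The ligand and its receptor were the most abundant of the 10 genes per length in monolayers. Agrn (gene ID 11603, chromosome 4, 156165290 to 156197533, minus strand) had 20.64, 19.82 and 19.94 FPKM in spheroids, against 7.16, 8.41 and 8.27 FPKM in monolayers. The spheroids again all lay above the monolayers. Its log2 fold change was 1.32 ± 0.05 (edgeR adjusted p = 1.68e-16). Gene counts do not separate the spliced forms of agrin, of which the nerve form is the potent activator of MuSK. Lrp4 (gene ID 228357, chromosome 2, 91457456 to 91513901, plus strand) had 4.17, 4.38 and 4.16 FPKM in spheroids, against 2.74, 2.61 and 3.02 FPKM in monolayers. The formats did not overlap, yet the rise was the smallest of the 9, at 0.58 ± 0.06 on the log2 scale (adjusted p = 8.76e-11), and 19.6% of all tested genes rose by more. Rapsn lies 411726 bases before Lrp4 on the same chromosome.

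Ordered by FPKM in spheroids, Chrna1 and Chrng came first with overlapping values, followed by Agrn, Chrnd and Chrnb1, each apart from its neighbours. Musk and Lrp4 overlapped next, then Rapsn and Dok7, and Chrne was last. In monolayers Agrn came first and Lrp4 second. Chrna1 and Chrnb1 overlapped after them, at 1.82 ± 0.121 and 1.78 ± 0.223 FPKM (SD, n = 3), and Chrng followed at 1.49 ± 0.0700 FPKM. Chrnd overlapped with Musk, and Dok7 with Chrne. Of the genes that share genome space with the 10, the annotation lists 4930544D05Rik across Chrne on the other strand, with at most 1 read per library and no shared exon bases, and Gm13778 across Rapsn with 4 shared exon bases. Whether the counting used strand is not given in the sources used here.

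Skeletal muscle markers moved in the same libraries. All 23 tested of 25 muscle markers rose, with a median log2 fold change of 4.18, and their summed level was 3526 to 3743 CPM in spheroids against 189.9 to 202.9 CPM in monolayers. Myf5 and Pax7, a satellite cell marker, fell below the filter, with 3 to 6 and 2 to 4 reads in spheroids and 0 to 1 read each in monolayers. Some of the 23, Myf6 with 2, 6 and 2 monolayer reads among them, passed the filter only through spheroids. Their place in the count supports nothing by itself. Among the largest rises were Cacng1, a calcium channel subunit gene, at 4.90 ± 0.14, and Ryr1, the calcium release channel gene, at 4.77 ± 0.09 on the log2 scale. Des, the desmin gene, stood at 477 ± 14.6 CPM in spheroids and 21.5 ± 0.290 CPM in monolayers. In bulk RNA, fewer cells of a type and less RNA per cell cannot be told apart, so the part that the number of muscle cells has in the receptor genes was not tested.

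Myod1, the gene of MyoD, had 743, 711 and 653 reads in spheroids, against 45, 55 and 45 in monolayers. Myog, the myogenin gene, had 1260, 1380 and 1248 reads in spheroids, against 62, 52 and 69 in monolayers. Myod1 rose by 3.83 ± 0.09, Myog by 4.38 ± 0.08 and Myf6 by 3.89 ± 0.33 on the log2 scale. Together with Myf5 these myogenic factors summed to 93.5 ± 4.70 CPM in spheroids and 5.23 ± 0.118 CPM in monolayers, a 17.9-fold difference. That sum was used as a yardstick for the receptor genes, and only its change between formats is read, since it is not corrected for gene length.

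Per transcript of the myogenic factors, the subunits Chrna1, Chrnd and Chrng differed by at most 0.13 on the log2 scale between formats, while Chrnb1, Musk, Rapsn, Agrn, Lrp4 and Chrne were lower in spheroids by this measure, with no overlap. Chrna1 stood at 1.38, 1.42 and 1.42 in spheroids, against 1.45, 1.49 and 1.57 in monolayers, a log2 difference of -0.10, also without overlap. For Chrnd the log2 difference was 0.10 and for Chrng 0.13, and the formats overlapped for both. The sign of each of these 3 differences turned with another muscle denominator, Des, Myod1 or Myog, so none has a stable direction. Dok7 overlapped as well, with a log2 difference of -0.24, which became 0.079 per Myod1 transcript.

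Chrnb1, in contrast, stood at 0.199, 0.188 and 0.210 per myogenic factor transcript in spheroids, against 0.691, 0.779 and 0.638 in monolayers. That is a log2 difference of -1.82, with no overlap. Musk was lower by this measure with a log2 difference of -0.94, and Rapsn with -0.96. Agrn and Lrp4 were lower still, at -2.84 and -3.58. Chrne had -2.58, on few reads, and -3.36 without monolayer replicate 3, which held 1 Chrne read, so its order relative to Agrn rests on that library. Exact permutation tests gave p = 0.10 for the 7 genes without overlap, the smallest possible with 3 against 3 libraries, and 0.143 after Benjamini-Hochberg adjustment over 10 genes, so none can pass 0.05 in this design. For Chrnd, Chrng and Dok7 the p was 0.60, 0.30 and 0.70.

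**Figure D4:**
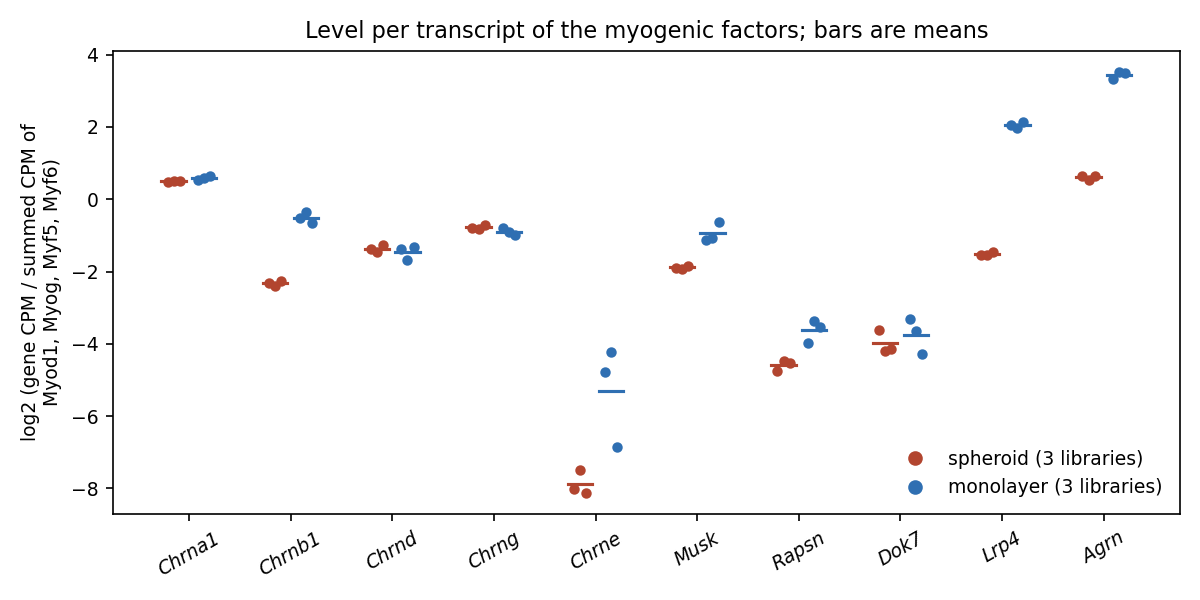
Log2 of each gene's CPM over the summed CPM of Myod1, Myog, Myf5 and Myf6 in every library, spheroids (red) left of monolayers (blue), with bars at the means of 3 libraries. Chrna1, Chrnd, Chrng and Dok7 lie within 0.24 of each other between formats, while Agrn and Lrp4 are lower in spheroids by 2.84 and 3.58.

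By the pattern over all 6 libraries, with log2 CPM centred on its mean and compared by Euclidean distance among 11281 genes with at least 5 CPM in a format, 5 genes outside the group lay nearest to Chrna1. They were Trim72, a membrane repair gene of muscle, at a distance of 0.129, Mymk, the myoblast fusion gene, at 0.189, Itgb1bp2 at 0.195, 1110002E22Rik at 0.203 and Jag2, a Notch ligand gene, at 0.205. Chrng ranked 26th by this distance and Chrnd 30th, with Dok7 at rank 144, Musk at 170, Chrnb1 at 376, Agrn at 780 and Lrp4 at 1720. Trim72 had 67.6 ± 1.66 CPM in spheroids and 3.89 ± 0.226 CPM in monolayers, and Jag2 7.37 ± 0.933 and 0.447 ± 0.0251 CPM (SD, n = 3). With only 2 formats in 6 libraries, closeness of this kind rests mostly on a similar fold change.

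Genes that surround the receptor at the muscle membrane moved in part. Of 13 tested genes of the dystrophin and utrophin complex, which anchors the postsynaptic membrane, 9 rose and 2 fell, with a median of 0.49. The muscle sarcoglycan gene Sgca rose by 3.97 ± 0.18 on the log2 scale. Utrn, whose product utrophin gathers at the junction, stood at -0.43 ± 0.05 and Sgcd at -0.20 ± 0.04. Dag1, the dystroglycan gene, rose by 0.65 ± 0.03. Counts of changed genes in these lists stand beside 37.1% of all tested genes that rose and 37.1% that fell. In any list, a gene near the floor in 1 format could pass the filter only through the other. Its place in a count then supports nothing by itself.

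In the synaptic cleft, 5 of 10 tested genes rose and 4 fell, with a median of 0.21. Col13a1, a membrane collagen gene needed for junctions to mature, rose by 4.65 ± 0.17, from a base of 8, 8 and 12 monolayer reads. It passed the filter only through spheroids. Ache, which encodes the esterase that clears acetylcholine, had 132, 137 and 117 reads in spheroids, against 27, 21 and 21 in monolayers, a rise of 2.45 ± 0.17 (edgeR adjusted p = 1.04e-14). Colq, the gene of the collagen tail that ties the esterase to the cleft, rose by 1.30 ± 0.22. The basal lamina genes Nid2 and Lamb2 stood at -0.67 ± 0.03 and -0.55 ± 0.03.

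Of 14 tested genes of cytoplasmic signalling downstream of MuSK, 2 rose and 10 fell, with a median of -0.19. These are broadly used signalling genes, and their changes were small: Dnaja3, whose product binds MuSK, stood at -0.35 ± 0.04, and so did the GTPase gene Cdc42 at -0.35 ± 0.03, while Dvl1 and Abl2 rose by 0.28 ± 0.04 and 0.28 ± 0.05. Receptor assembly and glycosylation genes, several of which cause myasthenia in people when mutated, fell in 6 of 8 cases with no rise, with a median of -0.25. Gmppb, which makes the activated mannose for glycosylation, stood at -0.72 ± 0.05, and the chaperone gene Tmem35a at -0.44 ± 0.16.

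Nerve-derived and activity-linked genes went both ways. Of 12 tested genes tied to nerve activity or denervation in muscle, 9 rose and 3 fell, with a median of 0.77. Scn4a, the sodium channel gene of adult muscle, rose by 5.04 ± 0.16. Trim63, a ubiquitin ligase gene of atrophy, rose by 4.13 ± 0.27. With 8, 12 and 8 monolayer reads for Scn4a and 7, 4 and 4 for Trim63, both passed the filter only through spheroids. Dach2 below passed it only through monolayers. The place of these genes in the count supports nothing by itself. Gadd45a, which denervation induces, stood at 158 ± 4.17 CPM in spheroids and 32.7 ± 1.33 CPM in monolayers (SD, n = 3), a rise of 2.27 ± 0.04. Dach2, a repressor in innervated mouse muscle, went the other way, with 3, 4 and 3 reads in spheroids, against 72, 51 and 61 in monolayers, a log2 fold change of -4.18 ± 0.31. Hdac4 stood at -0.15 ± 0.05.

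Of 7 tested neuregulin, ErbB and ETS genes, 4 rose and 2 fell, with a median of 0.12; by DESeq2 1 fell. Nrg1, the neuregulin gene, stood at -1.36 ± 0.08, and the receptor gene Erbb3, which Schwann cells express too, rose by 3.24 ± 0.09. Gabpa, which encodes the ETS factor of the N-box, rose by 0.12 ± 0.04, its partner gene Gabpb1 stood at -0.16 ± 0.06, and Etv4 rose by 1.14 ± 0.07. Among 9 tested E-box factors, partners and inhibitors, 5 rose and 4 fell, with a median of 0.10. Besides the myogenic factors, the inhibitor gene Id2 stood at -0.63 ± 0.04 and Twist1 at -0.43 ± 0.04. Of the partners of LRP4 in bone, Lrp5 rose by 1.18 ± 0.03 and Lrp6 stood at -0.14 ± 0.03. Sost, the sclerostin gene, had 0 reads in spheroids and 1 in monolayers.

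**Figure D5:**
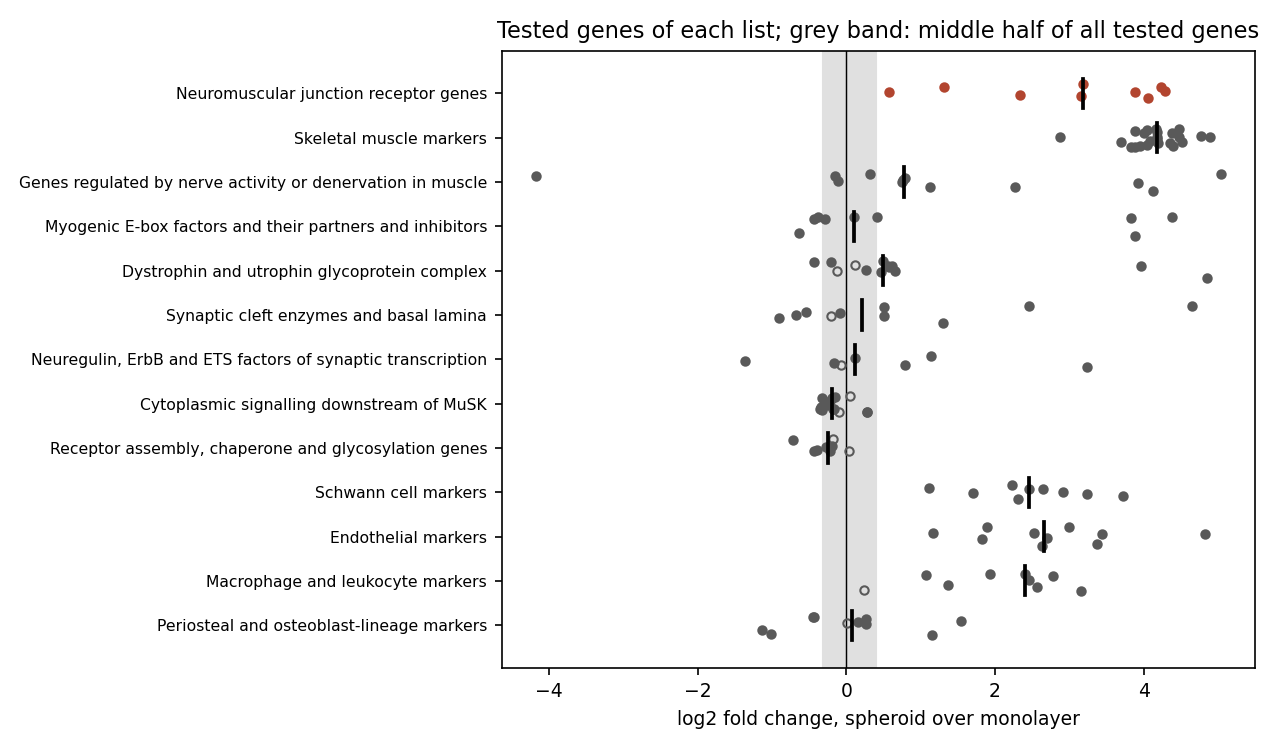
Log2 fold change of every tested gene by list (filled, past the threshold; open, not past it), with black bars at list medians and the interquartile range of all tested genes in grey. The receptor genes (red) span 0.58 to 4.28, and muscle markers 2.88 to 4.90.

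Nicotinic subunits outside muscle were nearly silent. Of 10 such genes in the tables, 2 passed the filter. Chrnb2, a subunit of brain receptors, had 22, 32 and 30 reads in spheroids, against 10, 7 and 13 in monolayers, a log2 fold change of 1.45 ± 0.30 (edgeR adjusted p = 8.30e-05). Chrnb2 passed the filter only through spheroids, so its call supports nothing by itself. Chrna7 had 7 to 10 reads in spheroids and 8 to 14 in monolayers; its change of -0.45 ± 0.38 on the log2 scale missed the threshold (adjusted p = 0.290). Chrna6 had no read, and the other 7 had at most 5 reads in any library. Markers of the motor nerve were also scarce, at 6.90 to 8.02 CPM in spheroids and 4.42 to 5.26 CPM in monolayers summed over 12 genes. Slc5a7, the choline transporter of the nerve ending, had 3, 1 and 1 reads in spheroids, against 2, 0 and 1 in monolayers. Of 3 nerve genes tested, 2 rose and 1 fell; Vamp1 rose by 1.52 ± 0.24, and Stmn2 stood at -1.43 ± 0.21. Snap25, Syt2 and Isl1 had no reads in monolayers and 2 to 9 in each spheroid. Chat, Slc18a3 and Mnx1 were not among the 18002 listed genes, so their levels are not known here.

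Markers of other cells that could be in the culture stood beside the receptor genes as follows. Of 9 tested Schwann cell markers 9 rose, with a median of 2.45 and a summed level of 136.1 to 137.1 CPM in spheroids against 23.5 to 27.0 CPM in monolayers. Gfra3 rose by 3.73 ± 0.46, from 3, 1 and 1 monolayer reads. Endothelial markers were higher in 10 of 10 cases (median 2.66), Cldn5 by 4.83 ± 0.29 and Tie1 by 3.44 ± 0.09. They summed to 371 to 388 CPM in spheroids against 65.0 to 67.5 CPM in monolayers. Cldn5 had 1, 5 and 3 monolayer reads, so Cldn5 and Gfra3 passed the filter only through spheroids. Their place in the counts supports nothing by itself. Of 9 tested macrophage and leukocyte markers 8 rose, with a median of 2.41 and a sum of 140.5 to 149.8 CPM in spheroids against 31.7 to 33.6 CPM in monolayers, Cd68 by 3.16 ± 0.11 and Fcer1g by 2.79 ± 0.23. Some of the 8, Fcer1g with 9, 10 and 14 monolayer reads among them, passed the filter only through spheroids. Their place in this count supports nothing by itself either. Periosteal and osteoblast-lineage markers had 5 of 10 higher and 4 lower, with a median of 0.08. Their sum was 29893 to 31119 CPM in spheroids against 52564 to 53252 CPM in monolayers, and included Pdgfra at 1.55 ± 0.03, Postn at 1.16 ± 0.03, Col1a1 at -1.14 ± 0.03 and Col1a2 at -1.01 ± 0.03. The part of these cell types in the levels of Agrn, Lrp4 and the other receptor genes was not tested.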

How the data were processed

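Spheroids and monolayers were harvested after 48 h, and total RNA was sequenced on a DNBSEQ instrument, per the labels' protocols. The submitters' processing notes name HISAT as the aligner and GRCm38.p6 as the build. Which tool and annotation made the counts, and whether strand was used, is not given in the sources used here. Per the file headers, the authors deposited for each gene an expected count, an estimate that need not be whole, and an FPKM value. In each library 28.9% to 30.6% of these counts were not whole.

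The title of each library gave its format. Counts were rounded, and genes were kept by filterByExpr at a minimum count of 10. Formats were compared with the robust quasi-likelihood test of edgeR 4.0.16 in R 4.3.3, after TMM scaling (factors 0.985 to 1.02), with p-values adjusted by Benjamini-Hochberg for 13708 genes and a threshold of 0.05. SEs come from the F statistic. CPM uses TMM-adjusted library sizes, and means carry the SD of 3 libraries. RefSeq (GRCm38.p6), to which 17948 gene IDs could be matched, gave positions and promoters; strand and exons come from GENCODE M21 on GRCm38. Only the edgeR test was tried on simulated counts, and the other steps were not. The mean chi-square ratio of replicate pairs was 1.90 to 2.91, where counting noise gives 1, so each library was counted once.

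The members, the 15 other lists and the tests were chosen with earlier results of these data known. Named were all members, Myod1, Myog, Myf5, Myf6, Des, in each list the 2 largest rises and 2 largest falls past the threshold with at least 1 CPM in the higher format, and the 5 genes nearest to Chrna1. Genes named beyond that rule, namely Colq, Dag1, Gadd45a, Gabpa, Sost, Slc5a7, Snap25, Syt2, Isl1, Chrna6, Chrna7 and Pax7, were picked after their values were seen. Not every gene picked by the rule is reported here. Alternatives used DESeq2 1.42.0, limma 3.58.1, other scalings and filters, limma on log2 FPKM after adding 1 or 0.1, a block for replicate number, Des as muscle denominator and each library left out. Myod1 and Myog as denominators were added after the data had been seen. Protein sequences were not used here.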

Additional observations from a re-analysis of the deposited data

How the results depend on the processing

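The 9 tested receptor genes rose under all 16 alternatives of scaling, filter, tool, unit, replicate block and left-out library, with adjusted p at most 0.000266, reached by Lrp4. Leaving out any 1 library moved the log2 fold change of Chrna1 between 4.01 and 4.11, of Chrnb1 between 2.28 and 2.42 and of Dok7 between 3.67 and 4.08. On log2 FPKM after adding 1, the changes of low genes were smaller, down to 1.46 for Rapsn and 1.52 for Dok7. After adding 0.1 they were 2.83 for Rapsn and 3.27 for Dok7. With no filter 10 receptor genes were called, Chrne among them at 1.23 on the log2 scale. Asking for at least a 2-fold change left 1746 genes higher and 915 lower over all genes. The deviations of same-numbered libraries correlated at 0.000800, 0.107 and -0.00260, and those of unlike-numbered libraries at -0.132 to 0.112. The labels do not say whether replicate numbers pair the libraries, and so few correlations cannot decide it. With a replicate block, 9 receptor genes were still called higher, and 5120 genes were higher and 5118 lower over all genes. The level per myogenic factor transcript turned sign in these cases. Per Des transcript the log2 difference was -0.22 for Chrnd and -0.19 for Chrng. Per Myog transcript, chosen after seeing the data, it was -0.14 for Chrnd and -0.11 for Chrng, and per Myod1 transcript, chosen likewise, 0.22 for Chrna1 and 0.079 for Dok7. With 1 library left out, it ranged from -0.014 to 0.16 for Chrnd, the lower end without monolayer replicate 2. The cause of these turns was not tested. The log2 ratio of Chrng to Chrne differed by 2.18 to 3.44 between formats, in the same direction, under the alternatives run; both ends come from leaving out 1 monolayer library, and a pseudocount of 0.1 FPKM gave 3.37. Per myogenic factor transcript, Chrne ranged from -3.36 to -2.05 with 1 library left out. Among other lists, with no filter, motor nerve genes had 5 called higher and 2 lower, neuronal nicotinic subunits 2 higher and LRP4 partners in bone 2 lower, and by DESeq2 the neuregulin, ErbB and ETS list had 1 lower. Depth limits Chrne: with 11 monolayer reads, the counting interval of its read ratio ran from 1.16 to 5.39. That interval leaves out the spread between libraries.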
